A study of Mus musculus with 24 samples.

Results

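The genes described here encode the interleukin-6 family signalling pathway of the mouse heart, from its ligands to a secreted product. They are the 9 rows of the count table named Il6, Lif, Il6st, Il6ra, Osmr, Lifr, Stat3, Socs3 and Serpina3n, of 25229 gene symbols in all, picked by name. The samples were 24 poly-A libraries, 6 in each of 4 groups, made from ventricular tissue (left ventricle with septum) of male C57BL/6 mice. TAC/Benzene hearts came from mice with transverse aortic constriction (TAC), an operation that narrows the aorta and overloads the left ventricle, and with inhaled benzene at 50 ppm. TAC/Air hearts had the same operation and HEPA-filtered air, Sham/Benzene hearts had a sham operation and benzene, and Sham/Air hearts had a sham operation and filtered air. All mice had surgery, 1 week of recovery and 6 weeks of exposure for 6 h a day on 5 days a week, and no genetic change is named in the labels. Their age is not given in the sources used here. The labels do not tie a library to a mouse, so p-values measure the spread between these libraries.

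Cytokines of this family share gp130, the product of Il6st, as their signalling chain. Interleukin-6 reaches gp130 through its own receptor chain (Il6ra), leukaemia inhibitory factor (Lif) through Lifr, and oncostatin M through Osmr. Kinases bound to gp130 phosphorylate STAT3 (Stat3), which enters the nucleus and switches on genes that include Socs3, an inhibitor that binds gp130 and its kinases and ends the signal. Serpina3n, a secreted serine protease inhibitor, belongs to the acute phase proteins that these cytokines induce in liver and in other tissues. In the heart the pathway is best known from cardiomyocyte growth and survival under load and from inflammation after injury.

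Promoter sequences of Socs3 and Serpina3n are shown because these are the inhibitor and the acute phase output of the pathway. Each is the RefSeq window of build GRCm38.p6 from 250 bases before to 50 bases after the annotated start, written 5′ to 3′ on the gene's own strand. The letters searched were TTCNNNGAA, the core to which STAT proteins bind, which read the same on both strands and do not overlap another motif that was searched. Capitals mark a match. The Socs3 window is chr11:117969317-117969616 on the minus strand, and the Serpina3n window is chr12:104406458-104406757 on the plus strand.
Socs3: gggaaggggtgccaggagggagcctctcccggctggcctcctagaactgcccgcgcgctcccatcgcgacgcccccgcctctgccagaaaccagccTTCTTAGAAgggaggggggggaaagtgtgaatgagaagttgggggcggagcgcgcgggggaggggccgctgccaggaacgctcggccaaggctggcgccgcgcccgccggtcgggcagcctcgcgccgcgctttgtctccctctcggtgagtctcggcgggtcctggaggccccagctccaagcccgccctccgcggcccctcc
Serpina3n: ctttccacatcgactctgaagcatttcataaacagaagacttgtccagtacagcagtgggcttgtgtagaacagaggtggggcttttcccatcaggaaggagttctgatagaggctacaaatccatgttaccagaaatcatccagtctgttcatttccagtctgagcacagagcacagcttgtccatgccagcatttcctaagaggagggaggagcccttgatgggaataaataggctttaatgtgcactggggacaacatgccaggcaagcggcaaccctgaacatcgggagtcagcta

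All 9 genes were found in the promoter table, and the letters occurred for 1 of them, Socs3, with the first base at -154 from the start. Over all promoters the letters were in 8.3% of 32851 windows and in 9.55% of 27025 genes. Of the 25 acute phase genes considered further on, 20 were in the table and 7 of these held the letters. Serpina3i is a neighbour of Serpina3n in the same serpin family, and Itih4 is an acute phase protein. Windows of 29 bases around a match in each are shown next because both genes passed a test below. The closest ungapped stretch of the Serpina3n promoter to the Serpina3i window is set beside them, with the same 9 positions in capitals, where the letters of the motif are not complete.
Serpina3i: taagtgcttgTTCCCAGAAatcacccagt
Serpina3n: caaatccatgTTACCAGAAatcatccagt
Itih4: aaacctgcatTTCCGAGAActtgcaccag

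The Serpina3n stretch shared 23 of 29 letters with that of Serpina3i, and its next closest stretch differed at 15 letters. Counted from 1 at the left end of the window, with the Serpina3i letter first, the differences were T1C, G4A, G6C, T8A, C13A and C24T. C13A falls on a fixed letter of the motif. A match is a description of letters and not of binding, and no binding was measured. The Serpina3i and Itih4 windows were picked by the calls of their genes. Among the other genes listed below, Gab1, called lower with constriction, held the letters as well. So did Bcl6 and Steap4, which were not called with constriction in benzene or in air.

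The libraries held between 4170660 and 14632231 counts, and 13571 genes had enough counts to be tested. The Sham/Air replicate 1 library stood apart. It had the lowest total, with the next at 6274199, and its rank correlations with the other libraries over tested genes were 0.852 to 0.913, against 0.963 to 0.996 among the other 23. Results that rest on it are given with and without it. Levels are given in CPM, the count scaled to a common library size, with library sizes adjusted by TMM. In bulk tissue, fewer cells of a type and less RNA per cell cannot be told apart. Summed CPM over 6 cardiomyocyte markers was 33020 to 38680 in TAC/Benzene, 33190 to 37160 in TAC/Air, 46460 to 54810 in Sham/Benzene and 50140 to 80820 in Sham/Air, and none of the 6 was at 0 in any group. The value of 80820 CPM is Sham/Air replicate 1, and the other Sham/Air libraries lay between 50140 and 52260 CPM.

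**Figure D1:**
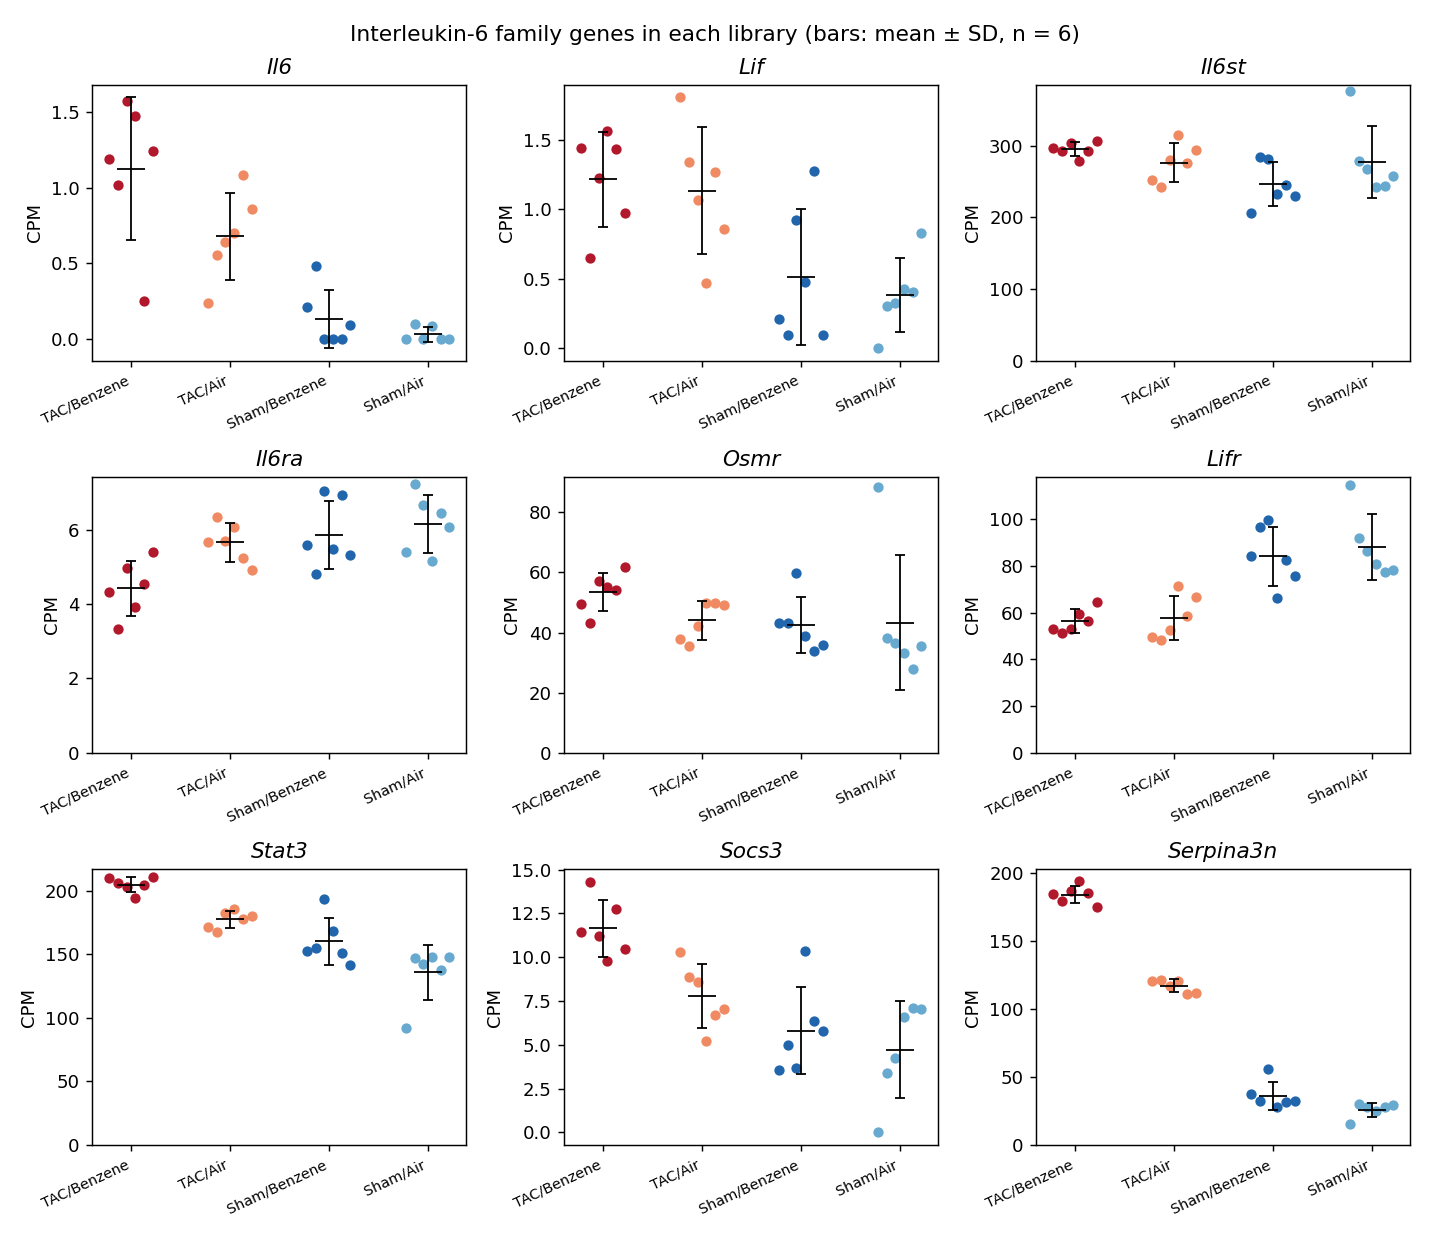
Level in CPM (vertical axes, linear) of each of the 9 genes in the 24 libraries, grouped along the horizontal axis by surgery and exposure; points are libraries and bars are the mean and SD of 6. Serpina3n lies above 110 CPM in all TAC libraries and at or under 55.8 CPM in all sham libraries, while Lifr is lower in both TAC groups.

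Constriction was accompanied by higher RNA of the transcription factor Stat3 and of the secreted inhibitor Serpina3n in both air and benzene, and by lower RNA of the receptor chain Lifr in both. In benzene, Socs3 was called higher as well and Il6ra lower, and neither call was kept under every alternative. For neither gene was the effect shown to differ between benzene and air. The ligands Il6 and Lif were rare and are described by their counts and levels. Against their sham controls, 4 of the 9 genes were called higher and 1 lower in TAC/Air hearts, where 8.81% and 7.35% of all tested genes were called in those directions. In TAC/Benzene hearts 4 were called higher and 2 lower, against 8.67% and 7.97% of all tested genes. Il6, in both comparisons, and Lif, in air, are among the genes called higher. They passed the filter on low counts through their TAC libraries, so the counts over the 9 genes are given as a description. Of the other 7 genes, 3 were called higher and 2 lower in benzene, and 2 higher and 1 lower in air. A gene is called at an adjusted p under 0.05 in edgeR's quasi-likelihood test, adjusted by the Benjamini-Hochberg method over all 13571 genes. Both comparisons have their own sham group, and each shares its samples with the benzene comparisons below.

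Il6, the founding cytokine of the family, was a rare transcript in every group. Its counts ran from 3 to 18 per library and summed to 78 in TAC/Benzene, from 3 to 12 and summed to 51 in TAC/Air, from 0 to 5 and summed to 8 in Sham/Benzene, and from 0 to 1 and summed to 2 in Sham/Air. The levels were 0.253, 1.22 and 1.57 CPM (lowest, median, highest) in TAC/Benzene, 0.236, 0.672 and 1.09 CPM in TAC/Air, 0, 0.0476 and 0.480 CPM in Sham/Benzene, and 0, 0 and 0.100 CPM in Sham/Air. Every TAC/Air library was above every Sham/Air library, and 5 of 6 TAC/Benzene libraries were above every Sham/Benzene library. No sham library reached the 0.873 CPM that the filter on low counts asks for, so Il6 was tested only because of its TAC libraries.

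The Il6 count per library size was 9.48 times higher in TAC/Benzene than in Sham/Benzene (95% counting interval 4.58 to 22.7) and 17.1 times higher in TAC/Air than in Sham/Air (4.49 to 145). These intervals cover counting error only. A count of 0 allows up to 3 counts, which is 0.206 to 0.852 CPM depending on the library. The fitted log2 fold change in edgeR, which depends on the prior count for a gene near 0, was 3.12 ± 0.57 (SE, adjusted p = 0.000244) in benzene and 3.76 ± 0.82 (adjusted p = 0.00172) in air. With no filter on low counts the adjusted p of Il6 was 0.000394 in benzene and 0.00175 in air. The benzene value was 4.15 without Sham/Benzene replicate 2, which alone held 5 of the group's 8 counts.

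Lif, which signals through Lifr and gp130, was also rare. Its level was 0.653, 1.33 and 1.57 CPM in TAC/Benzene, 0.468, 1.17 and 1.81 CPM in TAC/Air, 0.0951, 0.345 and 1.27 CPM in Sham/Benzene, and 0, 0.364 and 0.827 CPM in Sham/Air (lowest, median, highest). The groups overlapped, although 5 of 6 TAC/Air libraries lay above all Sham/Air libraries. Lif passed in air, with a log2 fold change of 1.44 ± 0.49 (SE, adjusted p = 0.0431), and did not pass in benzene, at 1.16 ± 0.43 (adjusted p = 0.0690). No Sham/Air library and 2 Sham/Benzene libraries reached the 0.873 CPM of the filter, against 5 libraries in each TAC group. With no filter on low counts the adjusted p of Lif was 0.0566 in air and 0.0933 in benzene. Neither call is firm. The air call was lost in 16 of 31 alternatives, with adjusted p-values between 0.0230 and 0.107, among them 14 that left out a library. The benzene value passed when Sham/Air replicate 1 was left out (1.15, adjusted p = 0.0403), and without Sham/Benzene replicate 3, Sham/Benzene replicate 5 or TAC/Benzene replicate 2 (adjusted p = 0.0463, 0.0114 and 0.0492).

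Among the receptor chains, Lifr was lower in both groups of constricted hearts. It measured 51.2, 54.9 and 64.8 CPM in TAC/Benzene, 48.3, 55.6 and 71.3 CPM in TAC/Air, 66.3, 83.4 and 99.8 CPM in Sham/Benzene, and 77.6, 83.7 and 115 CPM in Sham/Air (lowest, median, highest). No TAC library reached its own sham group. The log2 fold change was -0.58 ± 0.12 (SE, adjusted p = 0.000785) in benzene and -0.61 ± 0.12 (adjusted p = 0.000592) in air, and neither call was lost under any alternative.

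Il6ra, the chain that binds interleukin-6, was 3.34, 4.44 and 5.41 CPM in TAC/Benzene, 4.92, 5.68 and 6.33 CPM in TAC/Air, 4.80, 5.54 and 7.03 CPM in Sham/Benzene, and 5.15, 6.26 and 7.22 CPM in Sham/Air. All 6 TAC/Benzene libraries lay below the Sham/Benzene median, and 4 lay below its lowest library. Il6ra fell by 0.41 ± 0.13 on the log2 scale in benzene (adjusted p = 0.0303), and its value in air was -0.13 ± 0.13 (adjusted p = 0.566). The difference between these effects was -0.28 ± 0.18 (adjusted p = 0.9999). The benzene call was lost without Sham/Benzene replicate 3 (adjusted p = 0.0702) or 5 (0.0810), and without TAC/Benzene replicate 1 (0.0519), 2 (0.0932) or 4 (0.0625).

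Il6st, the shared signalling chain, was abundant in every group, with means of 295.1 ± 9.75 CPM in TAC/Benzene, 276.5 ± 26.6 CPM in TAC/Air, 246.3 ± 30.7 CPM in Sham/Benzene and 277.8 ± 50.2 CPM in Sham/Air (SD, n = 6 each). Its log2 fold change was 0.26 ± 0.10 in benzene (adjusted p = 0.0849) and -0.0053 ± 0.10 in air (adjusted p = 0.982). Osmr, the oncostatin M receptor chain, had means of 53.6 ± 6.43 CPM in TAC/Benzene, 44.1 ± 6.50 CPM in TAC/Air, 42.6 ± 9.31 CPM in Sham/Benzene and 43.3 ± 22.4 CPM in Sham/Air. It did not pass either, at 0.33 ± 0.20 in benzene (adjusted p = 0.310) and 0.054 ± 0.20 in air (adjusted p = 0.892).

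Sham/Air replicate 1 stood apart for both genes, with Osmr at 88.4 CPM against 27.97 to 38.3 CPM in the other 5 libraries, and Il6st at 376.2 CPM against 242.3 to 278.6 CPM. Without that library, Osmr passed in benzene (0.33, adjusted p = 0.0393) and in air (0.37, adjusted p = 0.0380), and Il6st passed in benzene (0.26, adjusted p = 0.00855). In that fit all 9 genes, Il6 and Lif included, were called in benzene, where 26.8% of 13665 tested genes were called in either direction, and 6 were called in air, where 23.2% were. That library is in neither benzene group and enters their comparison only through the fit shared by all groups. Its removal left the benzene fold changes at 0.26 for Il6st and 0.33 for Osmr. With it kept, limma-voom with sample quality weights called Osmr in benzene (adjusted p = 0.000731) and air (0.0098), and Il6st in benzene (0.000116). Such weights can lessen the part of a library that stands apart, so these calls may not rest on that library in full. In benzene, Il6st passed in 5 of 33 alternatives, among them the fit of only the 2 groups (adjusted p = 0.0184), and Osmr in 4.

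Stat3, the transcription factor of the pathway, had its highest median in TAC/Benzene and its lowest in Sham/Air. It measured 194.5, 205 and 211 CPM in TAC/Benzene, 167.5, 179 and 185.5 CPM in TAC/Air, 141.6, 153.9 and 193.8 CPM in Sham/Benzene, and 92.1, 144.8 and 147.8 CPM in Sham/Air (lowest, median, highest). Each TAC group lay wholly above its sham group, and TAC/Benzene lay wholly above TAC/Air. The highest Sham/Benzene library was above every TAC/Air library, and edgeR called neither comparison of benzene with air. The rise with constriction was 0.35 ± 0.10 on the log2 scale in benzene (adjusted p = 0.00996) and 0.38 ± 0.10 in air (adjusted p = 0.00552). The air value was 0.30 without Sham/Air replicate 1, and its adjusted p was 0.0526 when only the TAC/Air and Sham/Air libraries were fitted.

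Socs3, the feedback inhibitor, measured 9.80, 11.3 and 14.3 CPM in TAC/Benzene, 5.22, 7.79 and 10.3 CPM in TAC/Air, 3.59, 5.40 and 10.4 CPM in Sham/Benzene, and 0, 5.42 and 7.09 CPM in Sham/Air. The single highest Sham/Benzene library overlapped the TAC/Benzene range, and 5 of 6 TAC/Benzene libraries were above it. Socs3 rose by 0.99 ± 0.29 on the log2 scale in benzene (adjusted p = 0.0180), a call lost without Sham/Benzene replicate 1 (0.88, adjusted p = 0.0515). In air it was 0.61 ± 0.31 (adjusted p = 0.194). The library at 0 was Sham/Air replicate 1, with no Socs3 count, which allows up to 0.852 CPM.

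Serpina3n, the acute phase output, separated every TAC library from every sham library. It measured 174.7, 184.8 and 193.6 CPM in TAC/Benzene, 110.7, 118.4 and 121.4 CPM in TAC/Air, 27.6, 32.1 and 55.8 CPM in Sham/Benzene, and 15.6, 27.7 and 29.8 CPM in Sham/Air (lowest, median, highest). The libraries within each TAC group differed by little, with a coefficient of variation of 3.53% in TAC/Benzene and 4.10% in TAC/Air, against 28.2% in Sham/Benzene and 20.3% in Sham/Air. The rise with constriction was 5.10-fold in benzene (log2 2.35 ± 0.14, adjusted p = 1.889e-12) and 4.47-fold in air (log2 2.16 ± 0.14, adjusted p = 1.255e-11). Serpina3n lies in a cluster of near-identical serpin genes, and reads shared between them could be lost or split in the deposited counts.

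**Figure D2:**
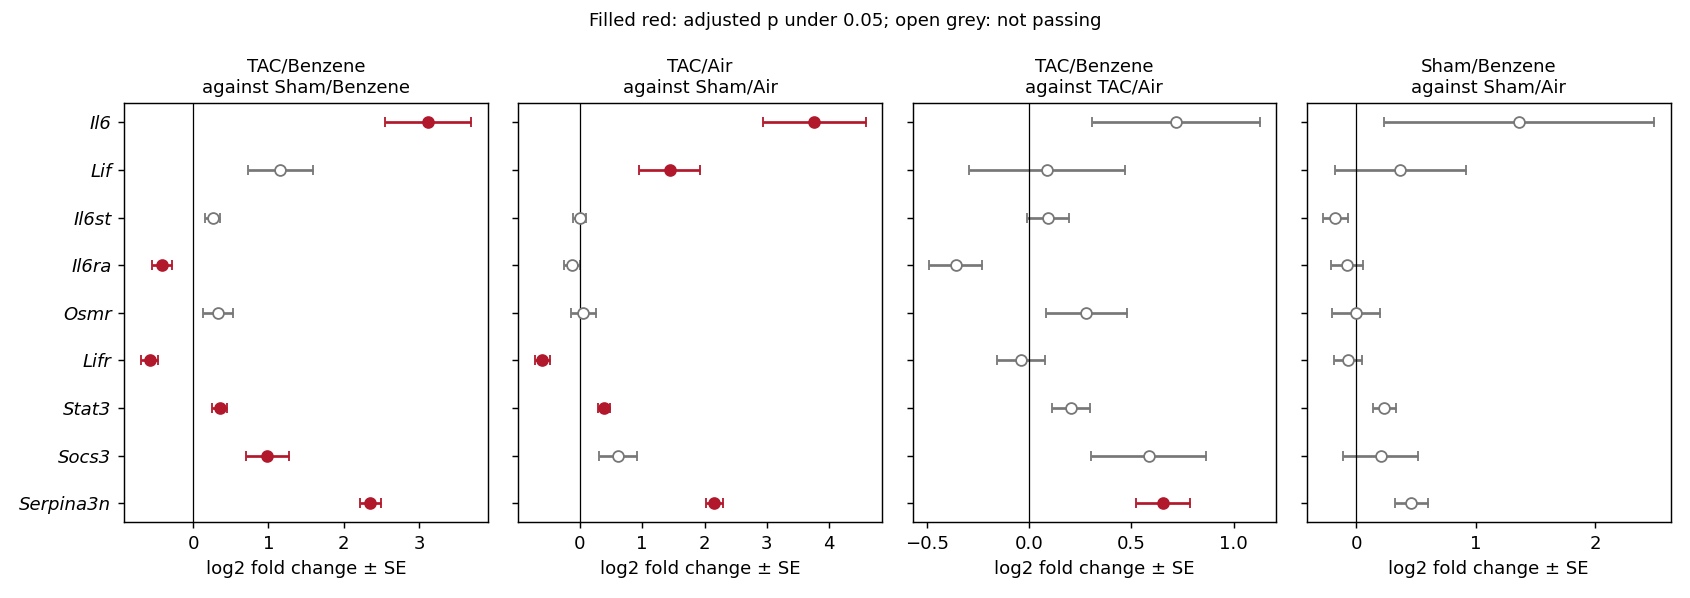
Log2 fold change with its SE (horizontal axes, whose ranges differ between panels) of the 9 genes in the 4 comparisons; filled red points have an adjusted p under 0.05. Serpina3n is filled in 3 of the panels, and no gene is filled for Sham/Benzene against Sham/Air.

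Benzene in constricted hearts was accompanied by a further rise in Serpina3n. TAC/Benzene exceeded TAC/Air 1.57-fold (log2 0.65 ± 0.13, adjusted p = 0.0142), and all 6 TAC/Benzene libraries were above all 6 TAC/Air libraries. With any library left out, the fold change lay between 0.64 and 0.67 on the log2 scale. The adjusted p in edgeR's test then ran from 0.000354 to 0.0472. Serpina3n was the 1 of 9 genes to pass, in a comparison where 0.295% of all tested genes were called higher. Stat3 and Socs3 did not pass in this comparison, at 0.21 ± 0.10 (adjusted p = 0.754) and 0.58 ± 0.28 (adjusted p = 0.802). Both passed with limma-voom (0.21, adjusted p = 0.0127, and 0.62, adjusted p = 0.0270) and with only the TAC libraries fitted (adjusted p = 0.0399 and 0.0438).

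The other genes gave less. The Il6 count per library size was 1.65 times higher in TAC/Benzene than in TAC/Air (95% counting interval 1.15 to 2.40), and the edgeR test, which also holds the spread between libraries, gave 0.72 ± 0.41 (adjusted p = 0.947). Il6ra was -0.36 ± 0.13 (adjusted p = 0.431), with all 6 TAC/Benzene libraries below the TAC/Air median. Osmr was 0.28 ± 0.20 (adjusted p = 0.9998), and Lif, Lifr and Il6st lay between -0.038 and 0.094.

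Benzene in sham hearts gave 0 calls among the 9 genes with edgeR, with DESeq2 and with limma-voom, where edgeR called 0.0221% of all tested genes. The smallest unadjusted p-values in edgeR's test were those of Serpina3n and Stat3. Serpina3n was at 0.46 ± 0.14 (unadjusted p = 0.00265, adjusted p = 0.487) and Stat3 at 0.24 ± 0.10 (unadjusted p = 0.0198, adjusted p = 0.801). For Serpina3n, 5 of 6 Sham/Benzene libraries were above all Sham/Air libraries. The highest, Sham/Benzene replicate 3 at 55.8 CPM, also held 34.9 CPM summed over 5 hepatocyte markers, against 5.18 to 17.6 CPM in 4 of the other Sham/Benzene libraries, 119 CPM in replicate 1 and 3.91 to 7.58 CPM in Sham/Air. None of the 5 markers was at 0 over either sham group. The part of liver RNA in the Serpina3n level was not tested. Without replicate 3 the Serpina3n value was 0.30 on the log2 scale. Sham/Air hearts also differed from the rest in lung epithelium markers, whose sum over 3 genes was 0.177 to 0.653 CPM in TAC/Benzene, 0 to 0.642 CPM in TAC/Air, 0.277 to 2.07 CPM in Sham/Benzene and 6.25 to 9.84 CPM in Sham/Air. Both tested markers were called lower in Sham/Benzene and in TAC/Air than in Sham/Air, and 1 was called lower in TAC/Benzene than in Sham/Benzene. None of the 3 was at 0 over any group, and their part in the comparisons with Sham/Air was not tested.

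The effect of constriction was not shown to differ between benzene and air for any of the 9 genes. The surgery by benzene interaction is the constriction effect in benzene minus that in air. It gave 0 calls with edgeR, 0 with DESeq2 and 1 with limma-voom, where edgeR called 0.169% of all tested genes. The smallest unadjusted p in edgeR's test was 0.0765, for Il6st. The limma-voom call was Serpina3n, at 0.44 (adjusted p = 0.0478). In edgeR the Serpina3n interaction was 0.19 ± 0.19 and that of Socs3 was 0.38 ± 0.42, both with an adjusted p of 0.9999.

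Per kilobase of transcript, which allows genes to be compared with each other, the order of the levels differed between the groups. In TAC/Benzene, Serpina3n led with 89.1 ± 3.15 CPM per kb, ahead of Il6st at 34.0 ± 1.12 and Stat3 at 33.9 ± 0.984, which did not differ beyond their spread (SD, n = 6). Osmr followed at 9.75 ± 1.17 CPM per kb, then Lifr at 5.84 ± 0.529 and Socs3 at 4.57 ± 0.638. In Sham/Air, Il6st led with 32.0 ± 5.78 CPM per kb, Stat3 had 22.5 ± 3.61 and Serpina3n 12.5 ± 2.54, followed by Lifr at 9.15 ± 1.46 and Osmr at 7.89 ± 4.07. The spread of Osmr there came from Sham/Air replicate 1. Without it, Lifr was 8.03 to 9.52 CPM per kb and Osmr 5.09 to 6.98 CPM per kb in the other 5 libraries, which did not overlap. Socs3 had 1.85 ± 1.09 CPM per kb in Sham/Air. The ligands and Il6ra stayed under 1 CPM per kb in every group. Il6ra, at 0.512 CPM per kb in TAC/Benzene and 0.713 in Sham/Air, was at a small share of the level of its partner Il6st.

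Of the other cytokines of the family, those described here did not pass in either comparison. Clcf1, a cytokine of the ciliary neurotrophic factor branch, averaged 1.49 CPM in TAC/Benzene, 1.51 CPM in TAC/Air, 1.22 CPM in Sham/Benzene and 1.10 CPM in Sham/Air, and its log2 fold change was 0.30 ± 0.30 in benzene (adjusted p = 0.599) and 0.41 ± 0.31 in air (adjusted p = 0.424). Ebi3, a subunit of interleukin-27, was -0.66 ± 0.39 in benzene (adjusted p = 0.305) and 0.30 ± 0.37 in air (adjusted p = 0.649). Cardiotrophin-1 (Ctf1), first described as a growth factor of cardiomyocytes, was -0.62 ± 0.25 in benzene (adjusted p = 0.103) and -0.63 ± 0.25 in air (adjusted p = 0.0908).

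Of 3 tested receptor chains, Il27ra was called higher in air (0.73 ± 0.23, adjusted p = 0.0282) and none in benzene, where Cntfr was at -0.83 ± 0.32 (adjusted p = 0.0756). Of 9 kinases, adaptors and transcription factors, 1 was called higher and 4 lower in benzene, and 0 higher and 2 lower in air. Over all tested genes, 8.67% were called higher and 7.97% lower in benzene, and 8.81% higher and 7.35% lower in air. Ptpn11, a phosphatase that docks on gp130 and links it to the MAP kinases, rose by 0.47 ± 0.075 in benzene (adjusted p = 3.683e-05) and was 0.20 ± 0.075 in air (adjusted p = 0.0653). Gab1, an adaptor of Ptpn11, fell by 0.47 ± 0.074 in benzene (adjusted p = 3.886e-05) and by 0.31 ± 0.074 in air (adjusted p = 0.00437). Jak1, a kinase bound to gp130, fell by 0.27 ± 0.093 in benzene (adjusted p = 0.0421) and by 0.31 ± 0.093 in air (adjusted p = 0.0226), and Stat5a fell by 0.40 ± 0.13 in benzene (adjusted p = 0.0341). Of 12 further negative regulators, 1 was called higher in each comparison, a share near the 8.67% and 8.81% of all tested genes. They were Socs7 in benzene (0.38 ± 0.12, adjusted p = 0.0260) and Pias3, an inhibitor of STAT3, in air (0.39 ± 0.12, adjusted p = 0.0249). Socs1 and Socs2 did not pass in either comparison. With Sham/Air replicate 1 left out, Ctf1 was called lower in each comparison, 5 of the 9 kinases, adaptors and factors were called lower in each, 1 receptor chain (Cntfr) was called lower in benzene, and 2 negative regulators were called higher in benzene and 3 in air. In that fit 26.8% of all tested genes were called in either direction in benzene and 23.2% in air.

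Genes known to respond to the family through STAT3 were called higher and not lower. Of 20 listed, 17 were tested, and 9 were called higher in benzene and 6 in air, with none lower, where 8.67% and 8.81% of all tested genes were called higher. The median log2 fold change of the 17 was 0.66 in benzene and 0.47 in air, against -0.0045 and -0.013 over all tested genes. Timp1, a secreted inhibitor of metalloproteinases, was 16.2 to 21.5 CPM in TAC/Benzene, 10.8 to 23.02 CPM in TAC/Air, 2.22 to 4.73 CPM in Sham/Benzene and 0 to 2.98 CPM in Sham/Air, and rose by 2.49 ± 0.24 in benzene (adjusted p = 2.047e-08) and by 3.10 ± 0.27 in air (adjusted p = 2.914e-09). Myc, a transcription factor of growth, rose by 1.32 ± 0.17 in benzene (adjusted p = 1.718e-06) and by 0.99 ± 0.18 in air (adjusted p = 0.000225). Pdpn, a membrane glycoprotein, rose by 0.94 ± 0.14 in benzene and by 1.00 ± 0.15 in air (adjusted p = 2.471e-05 and 2.162e-05). Cebpd, a transcription factor of the acute phase response, rose by 1.07 ± 0.19 in benzene (adjusted p = 0.000195) and was 0.47 ± 0.19 in air (adjusted p = 0.104).

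The remaining calls of that list were Bcl3, Junb, Il4ra, Mt2 and Tnfrsf12a in benzene and Junb, Il4ra and Tnfrsf12a in air. Many of these genes respond to other signals too, and the list does not mark STAT3 alone. Without Sham/Air replicate 1 the counts were 10 higher and 0 lower in benzene and 6 higher and 2 lower in air, and the 2 lower ones were Lrg1 and Pim1. In that fit 26.8% of all tested genes were called in either direction in benzene and 23.2% in air. Of the fibroblast markers, 3 of 6 were called higher in each comparison, against 8.67% of all tested genes in benzene and 8.81% in air. Without Sham/Air replicate 1, 5 were called higher in benzene and 4 in air, against the 26.8% and 23.2% in either direction. The summed level of the 6 fibroblast markers was 2064 to 2439 CPM in TAC/Benzene, 2355 to 2937 CPM in TAC/Air, 1286 to 1639 CPM in Sham/Benzene and 1255 to 3022 CPM in Sham/Air. The value of 3022 CPM is Sham/Air replicate 1, and the other 5 Sham/Air libraries lay between 1255 and 1589 CPM. None of the 6 was at 0 in any group. Their part in these results and in that of Il6 was not tested.

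**Figure D3:**
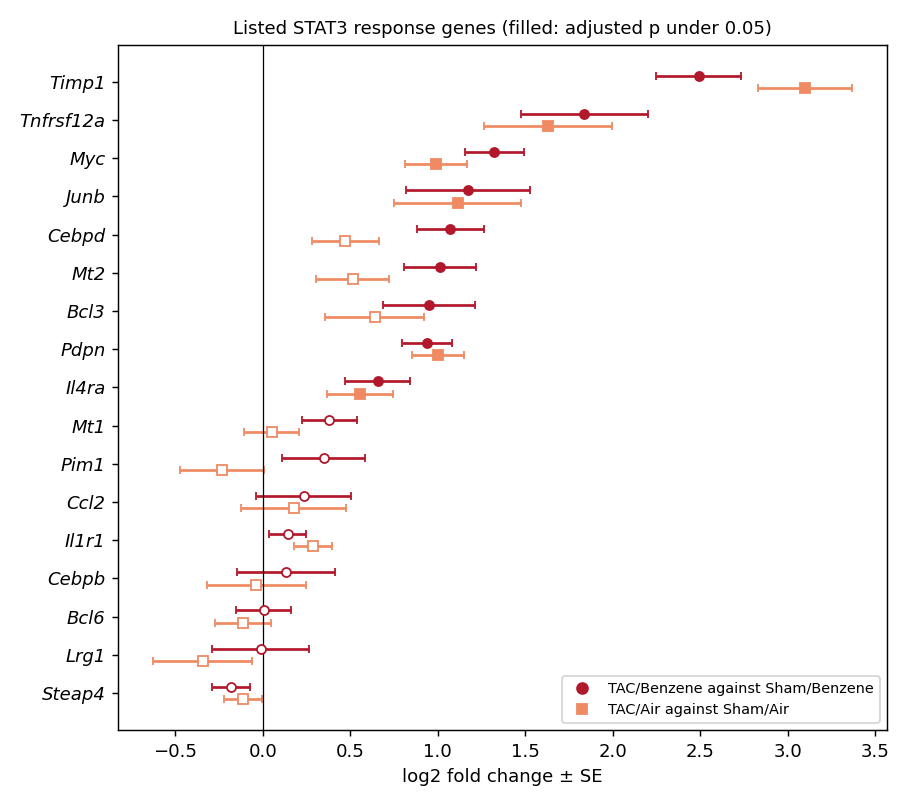
Log2 fold change with its SE (horizontal axis) of the 17 tested STAT3 response genes for TAC/Benzene against Sham/Benzene (circles) and TAC/Air against Sham/Air (squares); filled symbols have an adjusted p under 0.05. Timp1 lies furthest to the right in both comparisons, and Pim1, Ccl2, Il1r1, Cebpb, Bcl6, Lrg1, Steap4 and Mt1 are open in both.

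Serpina3n was not matched by the acute phase proteins as a group. Of 25 listed, 8 were tested, and 2 were called higher and 1 lower in benzene and 2 higher in air. Over all tested genes 8.67% were called higher and 7.97% lower in benzene, and 8.81% higher in air. Without Sham/Air replicate 1 the counts of the list were 3 higher and 1 lower in benzene and 3 higher in air. In that fit 26.8% of all tested genes were called in either direction in benzene and 23.2% in air. With all 24 libraries, the median log2 fold change of the 8 was 0.39 in benzene and -0.014 in air. Serpina3i, the family neighbour whose promoter stretch is shown above, rose by 2.23 ± 0.36 in benzene (adjusted p = 5.59e-05) and by 1.45 ± 0.37 in air (adjusted p = 0.00647), from counts of 0 to 28 per library. Those counts may hold reads shared with other serpins, and the gene may have passed the filter on low counts through its TAC libraries. Itih4 averaged 4.49 CPM in TAC/Benzene, 5.07 CPM in TAC/Air, 3.30 CPM in Sham/Benzene and 1.86 CPM in Sham/Air, rose by 1.33 ± 0.24 in air (adjusted p = 0.000214) and was 0.45 ± 0.22 in benzene (adjusted p = 0.183). Complement C3 fell by 0.32 ± 0.082 in benzene (adjusted p = 0.00633).

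Lcn2, an iron-binding acute phase protein that neutrophils store, followed another pattern from Serpina3n. It measured 15.3 to 20.5 CPM in TAC/Benzene, 3.78 to 6.17 CPM in TAC/Air, 2.85 to 6.91 CPM in Sham/Benzene and 4.43 to 9.11 CPM in Sham/Air, so that TAC/Benzene stood alone. It rose by 1.76 ± 0.17 in TAC/Benzene over TAC/Air (adjusted p = 1.163e-06), and its interaction was 1.97 ± 0.25 (adjusted p = 0.000461). Summed over 7 neutrophil markers the level was 42.6 to 52.0 CPM in TAC/Benzene, 9.77 to 14.8 CPM in TAC/Air, 7.03 to 21.6 CPM in Sham/Benzene and 10.5 to 14.64 CPM in Sham/Air. All 5 tested neutrophil markers were called higher in TAC/Benzene than in TAC/Air, where 0.295% of all tested genes were called higher. Of the 7 markers, 1 was at 0 over the TAC/Air group. The part of neutrophils in the levels of Lcn2, Socs3 and Serpina3n in TAC/Benzene was not tested. Summed over 6 macrophage and monocyte markers the level was 118.4 to 129.9 CPM in TAC/Benzene, 152.8 to 175.6 CPM in TAC/Air, 125.1 to 157.5 CPM in Sham/Benzene and 127.6 to 156.8 CPM in Sham/Air. Of these 6 markers, 1 was called lower in TAC/Benzene than in TAC/Air, and 4 without Sham/Air replicate 1, with a median log2 fold change of -0.44. Over all tested genes, 79 of 13571 were called in either direction in that comparison, and 234 of 13665 without Sham/Air replicate 1. None of the 6 was at 0 in any group, and their part in these results was not tested. Mt2 and Mt1, metal-binding proteins of the STAT3 response list, also rose in TAC/Benzene over TAC/Air, by 1.00 (adjusted p = 0.0154) and 0.67 (adjusted p = 0.0461), and were the 2 of 17 to pass there. Without Sham/Air replicate 1, 3 of the 17 were called higher.

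Across the 24 libraries, the genes whose log2 CPM was most like that of Serpina3n, among 12512 with a mean of at least 1 CPM, were Adamtsl2, Rcan1, Acta1, Nppb and Nmrk2, with a Pearson r of 0.981 for the first and 0.968 for the last. Nppb, which encodes B-type natriuretic peptide, and Acta1, the skeletal actin of the stressed ventricle, are markers of load. The groups shape these values, and with group means removed r was 0.477 to 0.707. For Il6 they were Cd34, Fhl1, Mfap5, Nmrk2 and Frzb, at 0.873 to 0.889, and 0.279 to 0.399 with group means removed. The libraries share depth and base composition trends, and the values are descriptions.

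For Socs3 the closest were Actr1b, Plod3, Prob1, Phlda3 and Cdc42ep1, at 0.975 to 0.983, and for Osmr they were Aff4, Tead1, Dipk2a, Mtus1 and Ell2, at 0.909 to 0.932. Here r with group means removed was as high, at 0.972 to 0.982 and 0.898 to 0.957. Without Sham/Air replicate 1 and with group means left in, r was 0.877 to 0.925 for Socs3 and 0.861 to 0.908 for Osmr. With that library left out, r with group means removed was not computed for these genes. With all libraries kept, Socs3 and Osmr varied between libraries of the same group together with these genes.

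That variation moved with base composition. Each library's deviation of gene levels from the mean was rank-correlated with the GC content of the transcripts, and this value ran from -0.752 in Sham/Air replicate 1 to 0.592. Its sign ran with the replicate numbers in 3 of the 4 groups. In TAC/Benzene it was positive in replicates 1, 2, 3 and 5 and negative in 4 and 6, in TAC/Air it was positive in 1 to 3 and negative in 4 to 6, and in both sham groups it was negative in 1 to 3 and positive in 4 to 6. The labels name no batch, and each group held libraries of both signs, although not in balance. The range was -0.215 to 0.564 in TAC/Benzene, -0.528 to 0.540 in TAC/Air, -0.485 to 0.592 in Sham/Benzene and -0.752 to 0.584 in Sham/Air. Within groups, Socs3 correlated with this value at r = 0.659, and at 0.838 without Sham/Air replicate 1. Socs3 has a GC content of 58.7%, higher than 92.8% of tested genes, and Lifr, Osmr and Il6st have 44.4%, 46.0% and 47.4%. Of 11 libraries with a negative value, 2 had Socs3 above its group mean, against 11 of the 13 with a positive value. Lifr was above its group mean in 10 of those 11 libraries and 1 of those 13, and Osmr in 9 of 11 and 2 of 13. Serpina3n was above its group mean in 6 of 11 and 7 of 13.

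**Figure D4:**
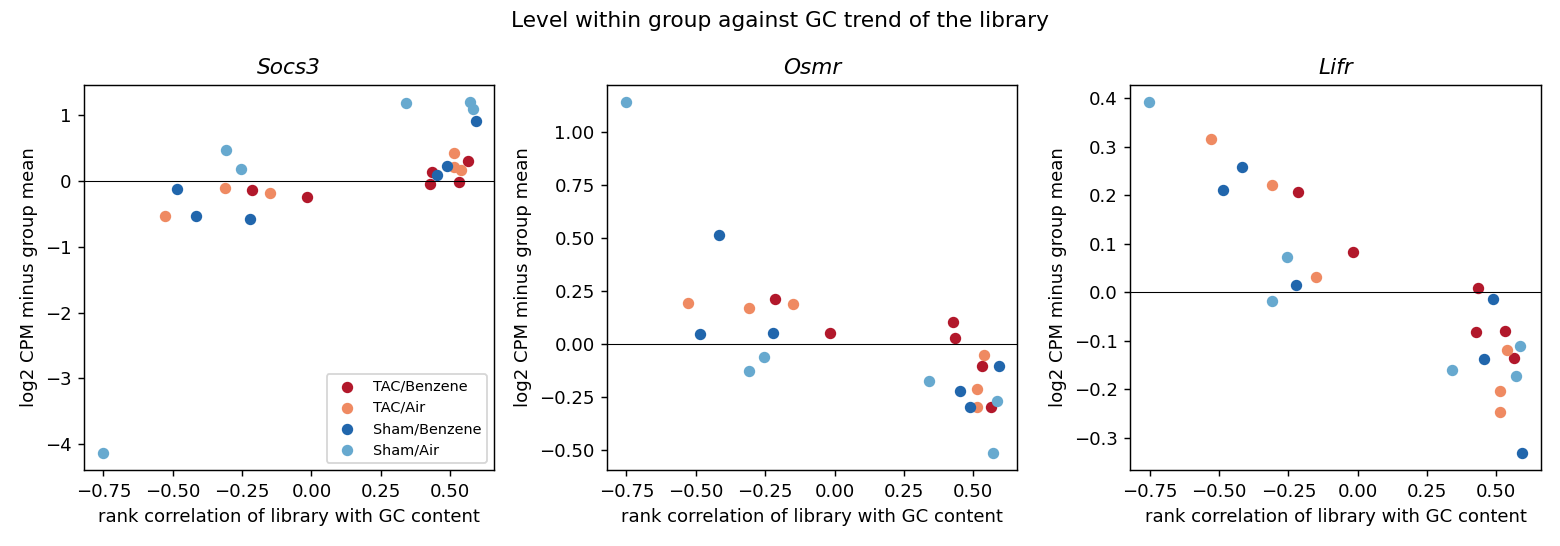
Deviation of the log2 CPM of Socs3, Osmr and Lifr from the group mean (vertical axes) against the rank correlation of each library with GC content (horizontal axes), 1 point per library, coloured by group. Socs3 lies above its group mean mostly at positive values, Osmr and Lifr at negative ones, and Sham/Air replicate 1 is the leftmost point at -0.752.

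With offsets for the GC and length trend of each library, a setting chosen after the data were seen, Socs3 passed in air as well (0.50 ± 0.18, adjusted p = 0.0457), and Osmr (0.34, adjusted p = 0.0361), Il6st (0.26, adjusted p = 0.000241) and Lif (1.10, adjusted p = 0.0471) passed in benzene. The directions of the called genes were the same in that setting. Whether the GC trend comes from the RNA or from the library preparation was not tested.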

How the data were processed

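The authors deposited raw counts for each gene symbol, as whole numbers in 1 table, for 24 poly-A libraries sequenced as 2 × 150 bp pairs, per the labels' protocols. FastQC 0.11.9, STAR, DESeq2 and the build mm9 are named, with no roles, in the submitters' processing notes. How reads were counted, with which annotation and strand setting, is not given in the sources used here. The number of count columns left unused was 0.

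Groups and replicate numbers came from the sample titles. With edgeR 4.0.16 under R 4.3.3, low counts were removed by its expression filter (minimum count 10, minimum total 15), TMM scaled the library sizes, and a robust quasi-likelihood fit used all 24 libraries and a coefficient for each group. It gave 5 contrasts, each adjusted by Benjamini-Hochberg over 13571 genes, with calls under 0.05. SE is the log2 fold change over the square root of F, and log2 CPM used a prior count of 2. Alternatives used DESeq2 1.42.0, limma-voom (limma 3.58.1), other size factors, filters and libraries, a replicate block, and, chosen after seeing the data, offsets for GC content and length.

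Transcript GC content and length were those of the longest GENCODE vM21 entry per symbol, found for 98.5% of tested genes. Promoters came from RefSeq on GRCm38.p6, while the counts were made on mm9. All 9 genes are named, with up to 4 genes per list by smallest p. A gene that this rule names is not reported here. Bcl3, Junb, Il4ra, Mt1, Mt2, Tnfrsf12a, Lrg1 and Pim1 were named after their values were seen. The genes and lists were chosen with earlier results of these data known.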

Additional observations from a re-analysis of the deposited data

Results flagged for a closer look

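In 36 groups of 6 libraries (9 genes in 4 groups), 6 held a library far from the others by Dixon's criterion, which chance meets in about 1 of 20 groups. Of these, 4 were Sham/Air replicate 1. It was the highest for Il6st at 376.2 CPM (next 278.6) and for Osmr at 88.4 CPM (next 38.3), and the lowest for Stat3 at 92.1 CPM (next 137.4) and for Serpina3n at 15.6 CPM (next 25.3).

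Sham/Benzene replicate 3 was the highest of its group for Osmr at 59.9 CPM (next 43.4) and for Serpina3n at 55.8 CPM (next 37.8).

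Lcn2 responded to constriction differently in benzene and in air. Its log2 fold change was 1.69 in benzene and -0.28 in air, and the difference of 1.97 had an adjusted p of 0.000461 in edgeR's interaction test.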

How the results depend on the processing

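The constriction calls of Serpina3n, Il6, Lifr and, in benzene, Stat3 were kept under every alternative that gave a value. Il6 and Lif give none when a mean of 1 CPM is required, which removes them. With only the 2 groups fitted, the filter on low counts removes Il6 from all comparisons but TAC/Benzene against TAC/Air, and Lif from both comparisons with Sham/Air. Depth limits Il6 and Lif most, at 0 to 23 counts per library. Counts of calls moved with the settings, and the cause was not tested.

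Genes called in TAC/Benzene against Sham/Benzene were 2257, and 4479 with limma-voom, 3644 with GC and length offsets and 4866 with these offsets and no Sham/Air replicate 1. In TAC/Air against Sham/Air they were 2193, and 3734, 3737 and 4347 in those settings and 1278 with only the 2 groups fitted. In TAC/Benzene against TAC/Air they were 79, and 164 with DESeq2, 554, 232 and 601 in those settings and 276 with only the 2 groups. In Sham/Benzene against Sham/Air they were 3, and 25 with DESeq2, 1 without a filter, 1 with only the 2 groups, 12 with offsets and 34 with offsets and no Sham/Air replicate 1. Interaction calls were 23, and 55 with DESeq2, 91 with limma-voom, 61 and 175 with the offsets. Of the 9 genes, TAC/Air calls were 5, and 3 with the mean of 1 CPM and 2 with only the 2 groups. TAC/Benzene against TAC/Air calls among them were 1, and 3 with limma-voom, 3 with only the 2 groups and 4 with offsets and no Sham/Air replicate 1. Interaction calls among them were 0, and 1 with limma-voom.

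With each library left out in turn, genes called ran from 1929 to 3667 in TAC/Benzene against Sham/Benzene, 1907 to 3169 in TAC/Air against Sham/Air, 52 to 234 in TAC/Benzene against TAC/Air, 1 to 5 in Sham/Benzene against Sham/Air and 15 to 49 for the interaction. The values 3667, 3169, 234 and 49 came without Sham/Air replicate 1, 52 without TAC/Benzene replicate 2, 5 without Sham/Benzene replicate 1 and 15 when Sham/Air replicate 4 was removed. Calls among the 9 genes ran from 5 to 9, 4 to 6, 1 to 1, 0 to 0 and 0 to 0.

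Libraries of the same number were not shown to be pairs: over 36 pairs of same-numbered libraries r ran from -0.53 to 0.47, and in 3 the own number was best. That comparison cannot show structure shared by several numbers, such as the run of GC signs described above. With a replicate block, calls were 1951 (5 of the 9 genes), 1867 (4), 46, 2 and 14 in the order above, and Lif in air (adjusted p = 0.0678) and Il6ra in benzene (0.0545) were lost.

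Directions reversed only for values that had not passed. Il6st in TAC/Air was 0.10 with limma-voom, 0.0083 without a filter, 0.061 and 0.070 with offsets, and -0.047 to 0.10 with a library left out. For Sham/Benzene against Sham/Air, Osmr was -0.014 with relative log expression, -0.024 with DESeq2, -0.0098 with only the 2 groups and -0.11 to 0.32 with a library left out. There Lif was -0.31 with limma-voom and -0.13 to 0.64, Lifr was 0.038 with offsets and -0.11 to 0.020, and Socs3 was -0.051 to 0.35. For the interaction, limma-voom gave 0.24 for Il6, 0.38 for Lif, -0.016 for Lifr and 0.12 for Stat3. Offsets gave -0.049 for Lifr and, with no Sham/Air replicate 1, 0.021 for Stat3. Interaction ranges with a library left out were -1.15 to 0.39 for Il6, -0.55 to 0.22 for Lif, -0.058 to 0.096 for Lifr, -0.035 to 0.39 for Osmr and -0.064 to 0.055 for Stat3. In TAC/Benzene against TAC/Air, Lif ran from -0.074 to 0.27 and Lifr from -0.083 to 0.028, and in TAC/Air against Sham/Air Osmr ran from -0.049 to 0.37.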
